A study of Mus musculus with 6 samples.

Results

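The 32 genes described here act in DNA replication, in the G1 phase of the cell cycle and in mitosis. Their messenger RNA was counted in aortas of Mymsl knockout mice (KO), which lack a long noncoding RNA, and in aortas of wild-type controls (WT). They were chosen by name, as rows of the deposited count table, and all 32 names were found among its 53735 rows. By role, 9 encode replication factors (Pcna, Mcm2 to Mcm7, Rrm2 and Tyms), 4 encode G1 cyclins (Ccnd1, Ccnd2, Ccnd3 and Ccne1) and 19 encode proteins of G2 and mitosis. Each genotype had 3 libraries, made with a stranded poly(A) kit from smooth muscle cells that, per the labels' protocols, had been purified from the medial layer. The labels give no strain, age, sex or construct of the deletion. The series text speaks of 3 pairs of mice, without saying which libraries form a pair or whether a library holds 1 mouse, so p-values below measure the spread between libraries only.

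A dividing cell first commits itself in G1, when D-type cyclins with Cdk4 or Cdk6, and then cyclin E with Cdk2, phosphorylate the retinoblastoma protein and release E2F transcription factors. E2F drives genes of DNA replication. Genes of G2 and mitosis are transcribed later, under the B-Myb-MuvB complex and FoxM1, and in resting cells the related DREAM complex holds them down through a promoter element called the CHR. Smooth muscle cells of a healthy adult aorta rarely divide, so messenger RNA of the mitotic genes is usually scarce in this tissue, whereas the MCM proteins, Pcna and D-type cyclins can be present in cells that are not in the cycle.

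Total counts were 20048216 to 23243129 in the KO libraries and 23506674 to 25521123 in the WT libraries. No row carried the name Mymsl. The row RP23-57D10.3, named after a clone, had 0 counts in each KO library, against 314, 378 and 273 counts in the WT libraries, and was the only row that edgeR called. Mitochondrially encoded genes took 10.003% to 18.9% of the counts in KO libraries and 5.66% to 9.02% in WT libraries. Smooth muscle markers were abundant in every library, with Acta2 at 16837 CPM or more. Levels are given in CPM, counts scaled to library size, after TMM normalization.

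Promoters of the members differ in the short elements named above, and 5 of them are printed because they belong to the genes on which the results turn: Mcm5 and Mcm6 for replication, and Cdk1, Mki67 and Top2a for mitosis. Each line gives the 200 bases just before the RefSeq transcription start (GRCm38.p6), 5′ to 3′ on the strand of the gene, with matches to the CHR, E2F and CCAAT letters on either strand in capitals.
Mcm5, chr8:75109309-75109508, plus strand: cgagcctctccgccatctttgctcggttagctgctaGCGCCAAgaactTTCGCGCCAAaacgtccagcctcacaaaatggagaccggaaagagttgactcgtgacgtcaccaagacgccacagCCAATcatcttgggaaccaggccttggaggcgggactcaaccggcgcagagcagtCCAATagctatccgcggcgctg
Mcm6, chr1:128359706-128359905, minus strand: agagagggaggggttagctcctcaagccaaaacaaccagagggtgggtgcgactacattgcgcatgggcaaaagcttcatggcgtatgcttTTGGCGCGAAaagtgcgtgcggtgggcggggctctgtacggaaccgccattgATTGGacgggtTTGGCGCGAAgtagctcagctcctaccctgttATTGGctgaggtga
Cdk1, chr10:69352913-69353112, minus strand: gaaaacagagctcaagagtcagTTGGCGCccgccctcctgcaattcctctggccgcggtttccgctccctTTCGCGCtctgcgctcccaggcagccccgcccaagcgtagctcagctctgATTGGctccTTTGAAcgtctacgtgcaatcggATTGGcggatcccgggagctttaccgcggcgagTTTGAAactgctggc
Mki67, chr7:135716380-135716579, minus strand: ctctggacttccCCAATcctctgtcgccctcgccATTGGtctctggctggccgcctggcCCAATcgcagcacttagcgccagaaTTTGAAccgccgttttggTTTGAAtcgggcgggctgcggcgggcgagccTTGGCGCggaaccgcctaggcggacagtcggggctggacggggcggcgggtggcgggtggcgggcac
Top2a, chr11:99024190-99024389, minus strand: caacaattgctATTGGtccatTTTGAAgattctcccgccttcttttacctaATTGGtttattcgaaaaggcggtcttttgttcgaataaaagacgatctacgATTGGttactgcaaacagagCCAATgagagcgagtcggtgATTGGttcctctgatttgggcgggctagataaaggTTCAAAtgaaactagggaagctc

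In the table of RefSeq promoters used here, 26 of the 32 genes matched a window of 250 bases before to 50 bases after a start, in 28 windows. Mcm4, Ccnd1, Ccnd2, Ccna2, Aurkb and Kif20a were not matched in that table. The CHR letters TTTGAA, searched on both strands, stood in 12 of 16 windows of mitosis genes (75%) and in 1 of 9 windows of replication genes (11.11%), that of Mcm2. Among all 32851 windows 17.89% held them. Any of the E2F words, which were TTCCCGC, then TTGGCGC, then TTCGCGC and finally TTGCCGC, on either strand, stood in 6 of 9 replication windows (66.67%), those of Mcm3, Mcm5, Mcm6, Mcm7 and Rrm2, in 3 of 16 mitosis windows (18.75%), those of Mki67, Cdk1 and Ccnb1, and in 9.57% of all windows. A pair of the E2F words can overlap on opposite strands, as in the runs of 10 capitals in the Mcm6 window. CCAAT stood in 15 of 16 mitosis windows (93.75%), in 8 of 9 replication windows (88.89%) and in 37.41% of all windows. A match describes letters only, and binding was not measured.

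The members spanned a wide range of levels. Per kilobase of exon, Ccnd2 was the most abundant at 39.7 CPM per kb in KO and 40.7 CPM per kb in WT, followed by Mcm6 at 15.4 and 15.9, Pcna at 14.7 in both genotypes and Ccnd3 at 13.4 in KO and 14.2 in WT. Replication genes ranged down to Rrm2 at 0.830 CPM per kb in KO and 0.729 in WT. Every mitosis gene lay below 1 CPM per kb on average: they ranged from 0.0468 (Cenpf) to 0.860 (Cdc20) in KO and from 0.0345 (Bub1) to 0.807 (Cdc20) in WT. The classes met at their edges. In WT, Tyms (0.833 ± 0.110 CPM per kb), Cdc20 (0.807 ± 0.201), Bub1b (0.767 ± 0.209) and Rrm2 (0.729 ± 0.220) did not differ beyond their spread (SD, n = 3 each).

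**Figure D1:**
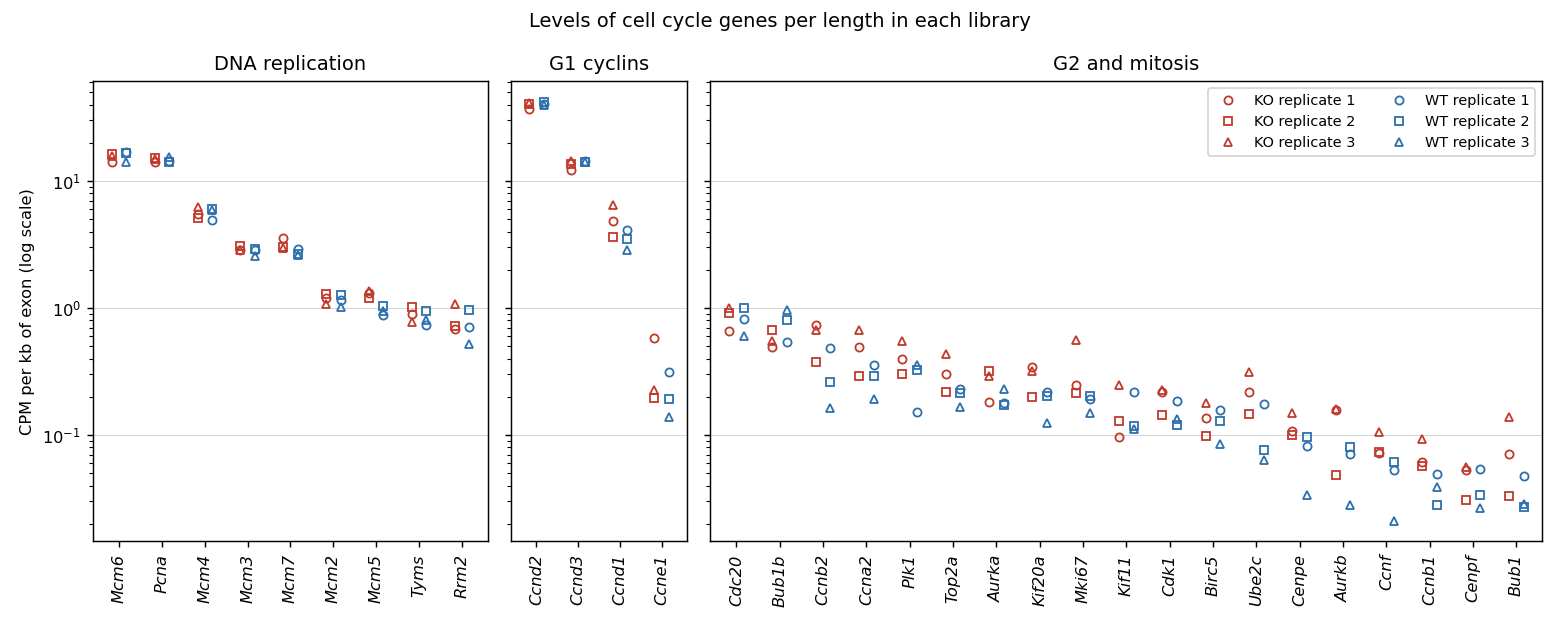
Level of each of the 32 genes in each library, in CPM per kb of exon on a log axis, with KO libraries (red) left of WT libraries (blue) and a symbol for each replicate number. G1 cyclins D2 and D3, Mcm6 and Pcna sit above 10 CPM per kb in every library, and most mitosis genes sit below 1.

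No member passed the test between genotypes. The edgeR quasi-likelihood test, adjusted over 14145 rows, called 0 of the 29 members that passed the filter on low counts, with Mcm5 at the smallest adjusted p (0.279). It called 0.00707% of all rows in either direction and 0% as higher in KO. At an unadjusted p under 0.05, 3 of these 29 were higher in KO (Mcm5, Ccnd1 and Mki67) and 0 were lower, where 6.8% of all rows were higher and 7.76% lower. DESeq2 also called 0 members, of the 19 to which it gave an adjusted p, where it called 1.34% of rows in all and 0.469% as higher. Every KO library was above every WT library for 6 of the 32 members, namely Mcm5, Mcm7, Mki67, Ccnb1, Ccnf and Cenpe, and for 10.5% of tested rows. The opposite held for 0 members and for 11.3% of tested rows.

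Ccnb1, Aurkb and Bub1, all of mitosis, did not pass the filter, which asks for about 0.428 CPM in at least 3 libraries. Of the 16 mitosis genes that passed it, 7 (Ccnb2, Ccnf, Ube2c, Plk1, Birc5, Cenpe and Cenpf) did not reach that level in all 3 WT libraries, as did Ccne1. Such genes can enter through KO libraries alone, so counts over tested genes could lean towards KO, and a fit without the filter was used for all members. With the filter, 23 of the 29 tested members had a log2 fold change above 0, with a median of 0.30. Without the filter, 26 of 32 members had a log2 fold change above 0, with a median of 0.42, where 51.9% of 24846 rows were above 0 with a median of 0.02. The share above 0 and the median were thus no smaller without the filter. Rows of low count leaned the same way: 65.4% of tested rows with a mean count under 50 were above 0, against 52.5% of all tested rows.

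Replication genes showed little difference between genotypes. Of the 9, 6 had a log2 fold change above 0 and 3 below, with a median of 0.08, and all 9 passed the filter in every library. Their summed level was 167, 178 and 175 CPM in KO replicates 1, 2 and 3, against 173, 178 and 163 CPM in WT replicates 1, 2 and 3, which is 173 ± 5.67 CPM in KO and 171 ± 7.47 CPM in WT (SD, n = 3 each). The KO range of this sum lay inside the WT range. Mcm6 and Pcna, at WT means of 74.3 and 35.3 CPM, carried most of the sum.

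Mcm5, a subunit of the MCM2-7 helicase that unwinds DNA at replication forks, lies on chromosome 8 from 75109569 to 75128439 on the plus strand (GRCm38, as for all gene coordinates here). It measured 5.21, 4.83 and 5.45 CPM in KO libraries, against 3.53, 4.17 and 3.81 CPM in WT libraries. The groups did not overlap, and both were tight. The mean was 5.16 ± 0.315 CPM in KO and 3.84 ± 0.323 CPM in WT (SD, n = 3 each), and the log2 fold change of 0.43 ± 0.146 (SE) did not pass over all rows (edgeR adjusted p = 0.279). It kept a value between 0.37 and 0.49 with any single library left out.

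Mcm7, on chromosome 5 from 138164583 to 138172422 on the minus strand, measured 15.6, 13.4 and 13.1 CPM in KO libraries and 13.03, 11.7 and 11.6 CPM in WT libraries. The groups again did not overlap, but KO replicate 3 and WT replicate 1 were almost level. Its log2 fold change was 0.21 ± 0.107 (SE; edgeR adjusted p = 0.387). The other helicase subunits did not follow Mcm5. Mcm6, with the highest level of the complex, measured 66.1, 76.1 and 72.9 CPM in KO libraries and 78.4, 78.1 and 66.3 CPM in WT libraries, with a log2 fold change of -0.05 ± 0.087. Mcm2 and Mcm3 had log2 fold changes of 0.04 ± 0.134 and 0.08 ± 0.101, and that of Mcm4 rounded to 0 with a standard error of 0.112. The KO and WT libraries of all 3 overlapped.

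Pcna, the sliding clamp of DNA polymerase, was the steadiest member. It measured 33.7, 36.4 and 35.6 CPM in KO libraries and 34.7, 34.1 and 37.1 CPM in WT libraries (35.2 ± 1.39 and 35.3 ± 1.56 CPM, SD, n = 3 each). Its log2 fold change had a standard error of 0.067 around a value that rounds to 0. Tyms, the thymidylate synthase that makes dTMP, measured 5.47, 6.26 and 4.71 CPM in KO libraries and 4.48, 5.80 and 4.93 CPM in WT libraries (log2 0.11 ± 0.169). Rrm2, the small subunit of ribonucleotide reductase, whose messenger RNA peaks in S phase, measured 1.91, 2.01 and 2.99 CPM in KO libraries and 1.95, 2.66 and 1.45 CPM in WT libraries. Its highest library was KO replicate 3 and its lowest WT replicate 3, and the log2 fold change was 0.19 ± 0.297.

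The G1 cyclins split by gene. Ccnd1, cyclin D1, lies on chromosome 7 from 144929931 to 144939925 on the minus strand, and measured 22.9, 17.0 and 30.8 CPM in KO libraries, against 19.5, 16.4 and 13.5 CPM in WT libraries. The groups overlapped, since KO replicate 2 was below WT replicate 1, and KO replicate 3 was the highest of all. The mean was 23.5 ± 6.92 CPM in KO and 16.4 ± 3.01 CPM in WT (SD, n = 3 each), with a log2 fold change of 0.52 ± 0.222 (SE; edgeR adjusted p = 0.342), and of 0.28 without KO replicate 3. Ccnd2, the most abundant cyclin, measured 348, 383 and 391 CPM in KO libraries and 379, 395 and 374 CPM in WT libraries (log2 -0.03 ± 0.072). Ccnd3 measured 107, 121 and 126 CPM in KO libraries and 126, 123 and 124 CPM in WT libraries (log2 -0.08 ± 0.074), with the lowest value in KO replicate 1. Ccne1, cyclin E1, rested on 30, 11 and 14 counts in KO libraries and 20, 13 and 9 counts in WT libraries, and its log2 fold change of 0.62 ± 0.515 became -0.02 without KO replicate 1.

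Mitosis genes leaned towards KO as a set, unevenly over the libraries. The KO mean was above the WT mean for 18 of the 19, Bub1b being the exception. In the fit without the filter the same number, 18 of 19, had a log2 fold change above 0, with a median of 0.64. Of all 24846 rows of that fit, 51.9% were above 0. The share at a mean count under 50, taken only over rows that passed the filter, was 65.4%. Their summed level was 20.7, 17.6 and 29.7 CPM in KO replicates 1, 2 and 3, against 17.9, 17.3 and 14.3 CPM in WT replicates 1, 2 and 3. KO replicate 3 was the highest and WT replicate 3 the lowest, while the remaining 4 libraries lay between 17.3 and 20.7 CPM and KO replicate 2 was below WT replicate 1. The means were 22.7 ± 6.28 CPM in KO and 16.5 ± 1.92 CPM in WT (SD, n = 3 each). Exact Poisson intervals at 95%, which cover counting error only, were 27.5 to 32.02 CPM for KO replicate 3, 18.8 to 22.9 CPM for KO replicate 1, 15.9 to 19.5 CPM for KO replicate 2, and 16.3 to 19.7, 15.7 to 18.99 and 12.9 to 15.9 CPM for WT replicates 1, 2 and 3. Without Mki67 and Top2a, the largest contributors to KO replicate 3, the sums were 15.5, 13.5 and 20.2 CPM in KO libraries and 13.9, 13.3 and 11.3 CPM in WT libraries. In bulk RNA, more cells in division and more of these transcripts per cell cannot be told apart.

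**Figure D2:**
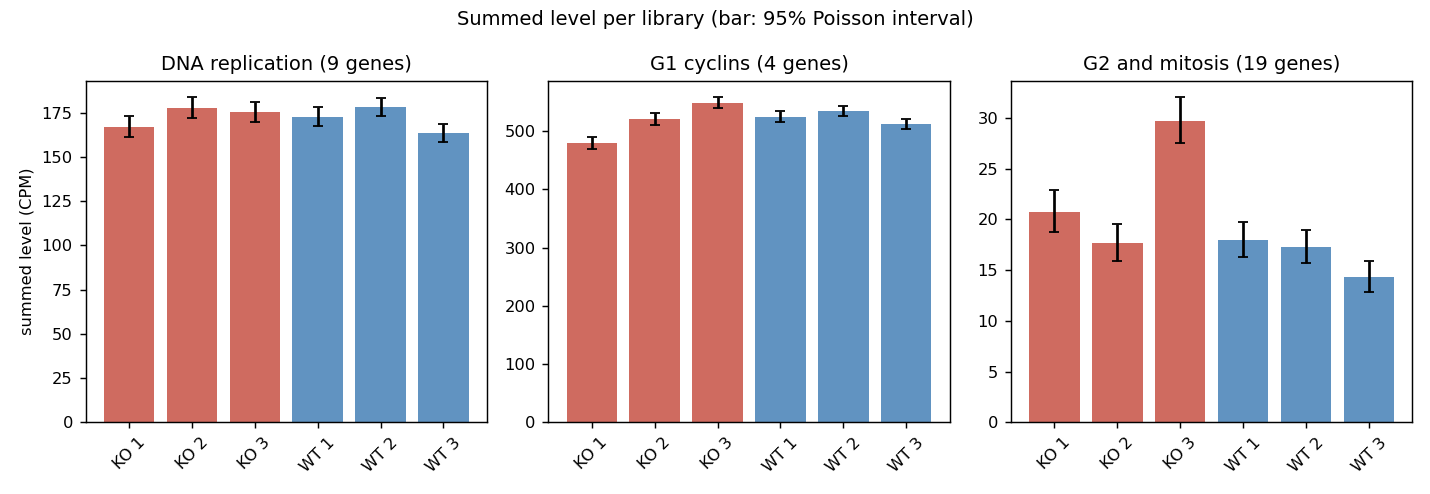
Summed CPM of the 9 replication genes, the 4 G1 cyclins and the 19 mitosis genes in each KO library (red) and WT library (blue), with exact 95% Poisson intervals as bars. The replication sums lie between 163 and 178 CPM in all 6 libraries, while the mitosis sum of KO replicate 3 (29.7 CPM) stands above the 14.3 to 20.7 CPM of the others.

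Mki67, the proliferation marker whose protein coats mitotic chromosomes, lies on chromosome 7 from 135689784 to 135716361 on the minus strand. It had 48, 45 and 130 counts in KO libraries (2.48, 2.15 and 5.62 CPM), against 47, 51 and 36 counts in WT libraries (1.95, 2.03 and 1.49 CPM). No KO library overlapped a WT library, yet KO replicate 2 exceeded WT replicate 2 by little, and KO replicate 3 carried most of the difference. The log2 fold change was 0.91 ± 0.385 (SE; edgeR adjusted p = 0.340), and 0.34 without KO replicate 3.

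Top2a, the topoisomerase that untangles sister chromatids, lies on chromosome 11 from 98992943 to 99024189 on the minus strand and had 53, 41 and 90 counts in KO libraries, against 50, 49 and 36 in WT libraries. In CPM, KO replicate 2 (1.96) lay between the WT libraries (1.49 to 2.08), so the groups overlapped. Its log2 fold change was 0.64 ± 0.291 (SE; edgeR adjusted p = 0.359), and 0.35 without KO replicate 3.

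Among cyclins of the later cycle, WT replicate 3 was the lowest library for Ccna2, Ccnb2 and Ccnf. Ccna2, cyclin A2 of S phase and G2, had 39, 25 and 64 counts in KO libraries and 35, 30 and 19 in WT libraries (log2 0.80 ± 0.374). Ccnb2, a B-type cyclin that activates Cdk1, had 22, 12 and 24 counts in KO libraries and 18, 10 and 6 in WT libraries (log2 0.97 ± 0.466). Ccnb1, the other B-type cyclin, had 5, 5 and 9 counts in KO libraries and 5, 3 and 4 in WT libraries, so single reads set the separation of its groups. Ccnf, a substrate receptor of the SCF ubiquitin ligase, had 11, 12 and 19 counts in KO libraries and 10, 12 and 4 in WT libraries (log2 0.89 ± 0.437). Cdk1, the kinase that triggers mitosis, on chromosome 10 from 69335146 to 69352938 on the minus strand, had 21, 15 and 26 counts in KO libraries and 22, 15 and 16 in WT libraries. In CPM its KO and WT libraries overlapped, and the log2 fold change was 0.43 ± 0.319.

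Among regulators of mitotic entry and exit, Ube2c, the ubiquitin-conjugating enzyme of the anaphase-promoting complex, had the largest fold change of the tested members, with 11, 8 and 19 counts in KO libraries and 11, 5 and 4 in WT libraries (log2 1.11 ± 0.505 SE, edgeR adjusted p = 0.359). Its activator partner Cdc20, the highest mitosis gene per length, had 24, 36 and 43 counts in KO libraries and 37, 47 and 27 in WT libraries, with a log2 fold change of 0.09 ± 0.286. Plk1, the polo-like kinase, had 17, 14 and 28 counts in KO libraries and 8, 18 and 19 in WT libraries (log2 0.59 ± 0.405). Aurka, a kinase of centrosomes and spindle poles, had 9, 17 and 17 counts in KO libraries and 11, 11 and 14 in WT libraries (log2 0.45 ± 0.343). All 4 overlapped between genotypes.

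The chromosomal passenger genes Aurkb and Birc5 rested on at most 14 counts per library. Aurkb had 9, 3 and 11 counts in KO libraries and 5, 6 and 2 in WT libraries, and Birc5, which encodes survivin, had 9, 7 and 14 counts in KO libraries and 13, 11 and 7 in WT libraries (log2 0.15 ± 0.399). Of the spindle checkpoint kinases, Bub1 had 6, 3 and 14 counts in KO libraries and 5, 3 and 3 in WT libraries. Bub1b, which encodes BubR1, differed from the rest: it had 41, 60 and 54 counts in KO libraries and 56, 86 and 99 in WT libraries, 2.44 ± 0.386 CPM in KO and 3.28 ± 0.895 CPM in WT (SD, n = 3 each). Its highest library was WT replicate 3, which was the lowest for 12 of the 19 mitosis genes, and its log2 fold change was -0.43 ± 0.254 (SE; edgeR adjusted p = 0.448) with overlapping groups.

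Motor and kinetochore genes were mixed. Cenpe, a kinetochore kinesin, had 18, 18 and 30 counts in KO libraries and 17, 21 and 7 in WT libraries (log2 0.75 ± 0.414). Cenpf, another kinetochore protein, had 16, 10 and 20 counts in KO libraries and 20, 13 and 10 in WT libraries (log2 0.30 ± 0.394). Kif11, the motor that pushes spindle poles apart, had 14, 20 and 43 counts in KO libraries and 39, 22 and 20 in WT libraries, so that a KO and a WT library shared the top of its range. Its log2 fold change was 0.11 ± 0.438, and -0.39 without KO replicate 3. Kif20a, a kinesin of cytokinesis, had 29, 18 and 32 counts in KO libraries and 23, 22 and 13 in WT libraries (log2 0.65 ± 0.342).

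**Figure D3:**
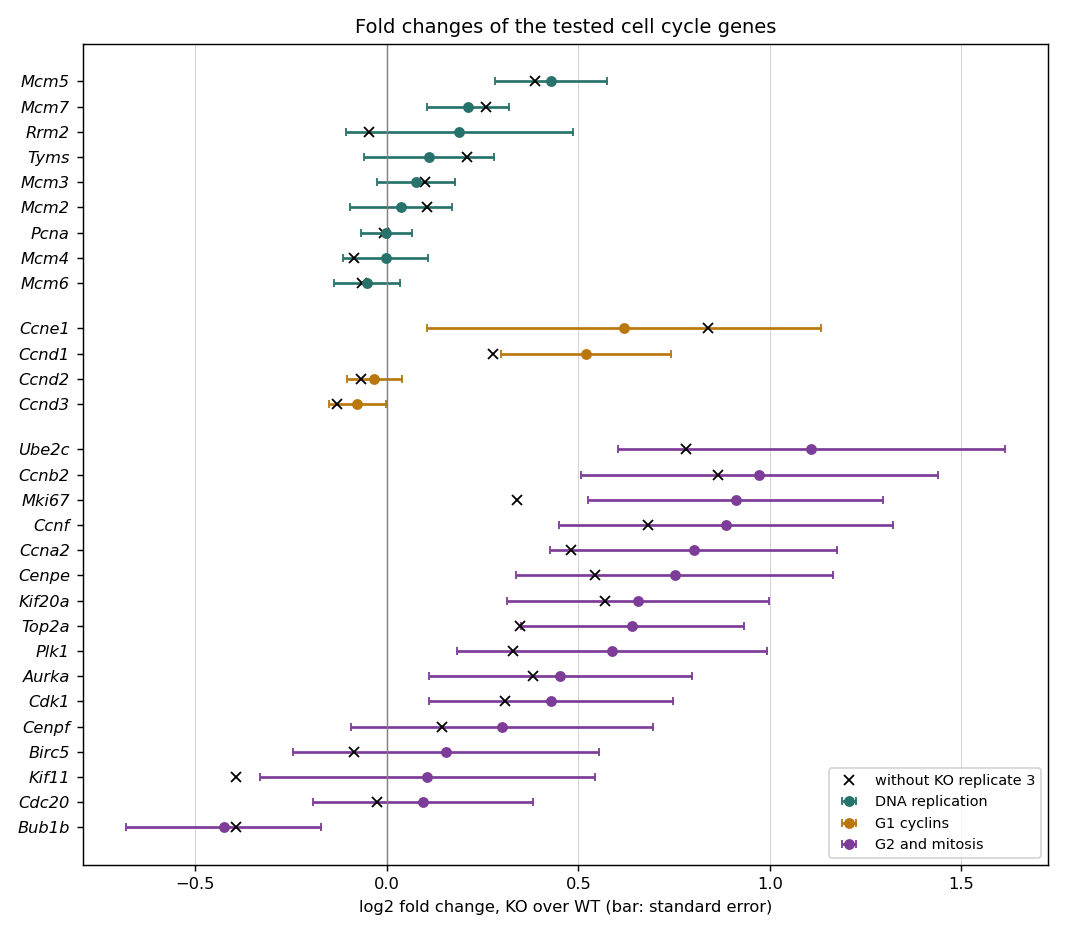
Log2 fold change, KO over WT, of the 29 tested members from edgeR (points) with standard errors (bars), grouped by role, and the value without KO replicate 3 (crosses). Replication genes cluster near 0 except Mcm5 (0.43), and crosses of Mki67 (0.34) and Kif11 (-0.39) lie far left of their points.

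Some members share exon bases with a gene on the opposite strand, and the sources used here do not state whether the counting used the strand. The 4 largest shares of exon length were 29.3% for Kif20a (with Cdc23), 23.4% for Ccnd1 (with Oraov1, named LTO1 in the annotation), 22.8% for Ube2c (with Tnnc2) and 12.49% for Ccna2 (with Exosc9). The partners had log2 fold changes of -0.09 for Cdc23, 0.02 for Oraov1, -0.12 for Tnnc2 and -0.06 for Exosc9.

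Single libraries set much of the pattern of the mitosis genes. Set against the highest WT library of each gene, KO replicate 1 was above it for 13 of 19 mitosis genes, KO replicate 2 for 5 and KO replicate 3 for 17. Of all tested rows, 33.5%, 28.3% and 30.6% were above it in KO replicates 1, 2 and 3, and of rows with a mean count under 50, 39.8%, 29.2% and 41.6%. For the 9 replication genes the counts were 2, 5 and 4. KO replicate 3 was the highest of all 6 libraries for 14 of the 19 mitosis genes and for 19 of the 32 members, where it was the highest for 16.2% of tested rows and for 25.5% of those with a mean count under 50. KO replicate 1 was the highest for 4 of the 32, where it was the highest for 22.6% of rows. WT replicate 3 was the lowest for 12 of the 19 and for 18 of the 32, where it was the lowest for 21.4% of rows and 23.9% of those of low count. KO replicate 2 was the lowest for 0 members, where it was the lowest for 14.3% of rows.

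**Figure D4:**
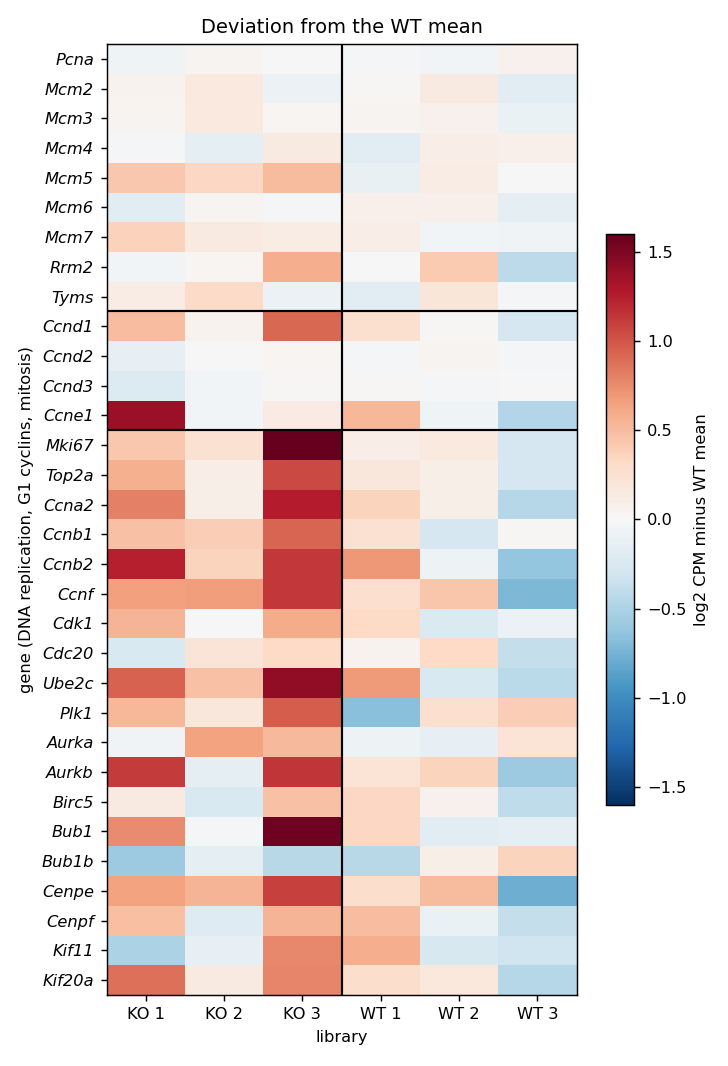
Deviation of log2 CPM from the WT mean for each member (rows, by role) in each KO and WT library (columns), in red where higher and in blue where lower. The mitosis rows are mostly red in KO replicate 3 and mostly blue in WT replicate 3, while the replication rows are pale except Mcm5, Mcm7, Rrm2 and Tyms.

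The contrast between replication and mitosis genes rested on few libraries. The median deviation of the 16 tested mitosis genes from the WT mean was 0.54, 0.17 and 0.87 on the log2 scale in KO replicates 1, 2 and 3, and 0.28, 0.09 and -0.38 in WT replicates 1, 2 and 3. For the 9 replication genes it was 0.05, 0.14 and 0.03 in KO libraries and -0.01, 0.10 and -0.06 in WT libraries. Over tested genes, the median log2 fold change of mitosis genes was 0.61, and it was 0.34 without KO replicate 3 and 0.25 without both KO replicate 3 and WT replicate 3, a setting chosen after the data were seen. That last setting fitted 28 of the 29 tested members, so its median may cover fewer genes. The classes also differ in count. Of the tested members, 15 had a mean count under 50, all of them above 0 with a median of 0.59. Tested rows of such counts had a median of 0.19, with 65.4% above 0. The 15 include Ccne1 and the 7 mitosis genes that did not reach the filter level in all 3 WT libraries. Such genes could lean towards KO through the filter, but in the fit without it the median of all 19 mitosis genes was 0.64. The 14 members with larger counts had 8 above 0 and a median of 0.06, but only 3 of them are mitosis genes (Mki67, Top2a and Bub1b), so count and class cannot be told apart here. Fitted on rows with a mean count of at least 50, 2 of these 3 were above 0, with a median of 0.65.

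KO replicate 3 was also the highest library for markers of some other cell types. Endothelial markers summed to 499, 474 and 784 CPM in KO libraries and 538, 445 and 414 CPM in WT libraries. KO replicate 3 was the highest for 9 of the 11 and WT replicate 3 the lowest for 7. Pecam1, their most abundant gene, measured 209, 164 and 335 CPM in KO libraries and 211, 200 and 163 CPM in WT libraries. Macrophage markers summed to 117, 55.7 and 145 CPM in KO libraries and 100, 59.9 and 92.1 CPM in WT libraries, with KO replicate 3 the highest for 10 of the 12 tested and WT replicate 3 the lowest for 0. Interferon response genes, a list taken because they mark KO replicate 3, summed to 145, 133 and 304 CPM in KO libraries and 98.5, 121 and 99.0 CPM in WT libraries. KO replicate 3 was the highest for 14 of the 16 tested, but KO replicates 1 and 2 also summed above every WT library. All KO libraries lay above all WT libraries for 6 of the 16, where this held for 10.5% of tested rows. None of the listed endothelial, macrophage or interferon genes was at 0 in all libraries. The part of these cells in the mitosis values was not tested.

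Lymphocyte markers were close to 0, with sums of 1.03, 0.382 and 0.649 CPM in KO libraries and 1.54, 0.318 and 0.704 CPM in WT libraries, and 0 of the 9 listed passed the filter. Fibroblast markers summed to 2421, 1059 and 2030 CPM in KO libraries and 1852, 1076 and 1774 CPM in WT libraries, with KO replicate 1 the highest. Replicate 2 of each genotype was low, as in the macrophage sums. Heart muscle markers were highest in KO replicate 1 (83.2 CPM, against 28.2 and 19.98 CPM in the other KO libraries and 18.5 to 24.3 CPM in WT libraries). Fat markers summed to 89.4, 95.8 and 144 CPM in KO libraries and 149, 70.6 and 54.7 CPM in WT libraries, and Schwann cell markers to 59.0, 35.4 and 34.6 CPM in KO libraries and 37.3, 44.8 and 38.5 CPM in WT libraries. Red blood cell markers summed to 35.7, 31.8 and 25.6 CPM in KO libraries and 152, 20.3 and 76.1 CPM in WT libraries. The smooth muscle sum was 43374, 57367 and 46527 CPM in KO libraries and 52056, 55448 and 54863 CPM in WT libraries. Of all tested rows, 52.5% had a log2 fold change above 0. Among tested markers, this held for 9 of 11 endothelial, 11 of 12 macrophage, 8 of 9 fibroblast and 6 of 7 fat genes. It held for 6 of 6 heart muscle, 3 of 6 Schwann cell and 0 of 5 red blood cell genes. Of the 9 smooth muscle genes, 1 was above 0 and 8 were below.

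**Figure D5:**
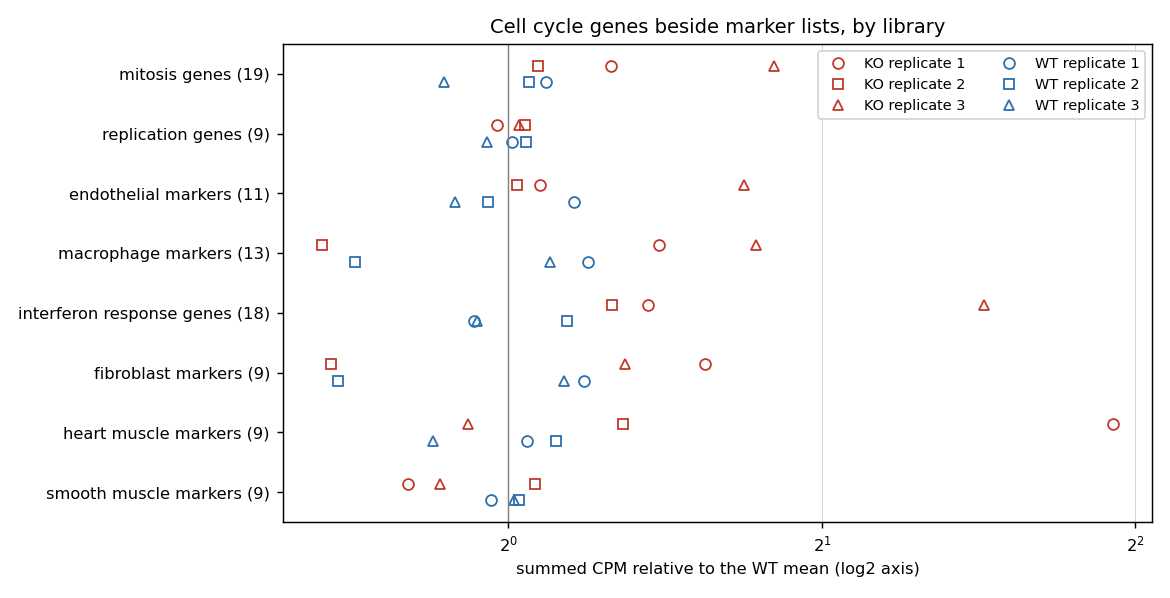
Summed CPM of the mitosis and replication members and of marker lists in each library, relative to the WT mean on a log2 axis, with KO libraries (red) drawn above WT libraries (blue) and the number of genes in brackets. KO replicate 3 is the rightmost library for mitosis genes and for endothelial, macrophage and interferon lists. The interferon list was taken because it marks KO replicate 3. Replication genes of all libraries lie close to 1.

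Other genes of the cell cycle were described from 4 lists of 129 genes that exclude the members. These lists were drawn up with earlier results of these data known, so their counts are a description and not independent support. Of 107 tested, 0 passed in edgeR in either direction, and 83 had a log2 fold change above 0 with a median of 0.13. The share above 0, against which the 4 lists can be read, was 52.5% of all tested rows. It was 65.4% of tested rows with a mean count under 50. At an unadjusted edgeR p under 0.05, 11 of the 107 were higher and 2 lower. Of all tested rows, 6.8% were higher and 7.76% lower at that p. KO libraries were above all WT libraries for 17 of the 107 and below them for 5, where this held for 10.5% and 11.3% of tested rows. Genes named below include up to 5 per list with the smallest p, so their separation follows in part from that choice.

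Licensing and DNA synthesis genes had the smallest p-values. Of 41 tested of 43, 30 were above 0, with a median of 0.11. KO libraries were above all WT libraries for 7 of the 41 and below them for 1. Orc6, a subunit of the origin recognition complex, measured 15.1, 14.8 and 13.2 CPM in KO libraries and 10.6, 11.9 and 10.4 CPM in WT libraries (log2 0.39 ± 0.102 SE, edgeR adjusted p = 0.264). The groups did not overlap, as for Mcm5, and KO replicate 3 was the lowest KO library. Dut, the dUTPase that keeps uracil out of DNA, measured 18.6, 16.7 and 15.5 CPM in KO libraries and 11.6, 14.6 and 11.2 CPM in WT libraries (log2 0.44 ± 0.129). Cdc7, the kinase that fires origins, measured 1.19, 1.19 and 1.38 CPM in KO libraries and 0.498, 0.755 and 0.704 CPM in WT libraries (log2 0.94 ± 0.279). Rfc2, a subunit of the clamp loader (log2 0.26 ± 0.077), and Uhrf1, which maintains DNA methylation at replication (log2 0.95 ± 0.389), were also separated by genotype.

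Of the spindle and division genes, 34 of 50 were tested and 30 of these were above 0, with a median of 0.26. Summed over all 50, the level was 227 ± 8.97 CPM in KO and 237 ± 19.7 CPM in WT (SD, n = 3 each). Anln alone held 57.9 to 71.9 CPM of this sum in KO libraries and 72.4 to 122 CPM in WT libraries. The sum therefore does not show the direction of the other genes. KO libraries were above all WT libraries for 8 of the 34 and below them for 1. Tpx2, a spindle assembly factor, measured 4.64, 4.73 and 5.62 CPM in KO libraries and 2.82, 3.81 and 3.69 CPM in WT libraries (log2 0.54 ± 0.179). The condensin genes Smc4 (log2 0.19 ± 0.064) and Ncapd2 (log2 0.35 ± 0.125) and the passenger gene Cdca8 (log2 0.94 ± 0.322) were separated in the same direction. Anln, an actin-binding protein of the cleavage furrow, went the other way with 71.9, 65.9 and 57.9 CPM in KO libraries and 91.3, 72.4 and 122 CPM in WT libraries (log2 -0.54 ± 0.178). Each of these 5 had an edgeR adjusted p between 0.279 and 0.289.

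Among regulators of the E2F pathway, 18 of 20 were tested and 11 were above 0, with a median of 0.05. All KO libraries exceeded all WT libraries for 1 of the 18 and fell below them for 3, where this held for 10.5% and 11.3% of tested rows. E2f3, an activating E2F, measured 8.51, 6.16 and 6.88 CPM in KO libraries and 11.2, 9.42 and 9.36 CPM in WT libraries (log2 -0.48 ± 0.152 SE, edgeR adjusted p = 0.279). Rb1, the retinoblastoma gene (log2 -0.16 ± 0.072), and its relative Rbl2 (log2 -0.14 ± 0.069) likewise had all KO libraries below all WT libraries. E2f4, a partner of the DREAM complex, had KO libraries above all WT libraries (log2 0.12 ± 0.069). E2f1 (log2 0.05), Rbl1 (0.11), Tfdp2 (-0.10), Myc (-0.10), Foxm1 (0.31) and Mybl2 (0.57) lay within 2 standard errors of 0 on the log2 scale, with overlapping groups.

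Of the cyclin-dependent kinases and their inhibitors, 14 of 16 were tested and 12 were above 0, with a median of 0.26. All KO libraries exceeded all WT libraries for 1 of the 14 and fell below them for 0, where this held for 10.5% and 11.3% of tested rows. Cdk2 had a log2 fold change of 0.29 ± 0.114, Cdk4 of 0.10 ± 0.085 and Cdk6 of -0.12 ± 0.106. Pkmyt1, an inhibitory kinase of Cdk1, measured 3.35, 2.82 and 3.63 CPM in KO libraries and 2.32, 2.26 and 1.82 CPM in WT libraries (log2 0.61 ± 0.199), with no overlap. Cdc25b, a phosphatase that opposes it, had 0.28 ± 0.154. The inhibitor Cdkn1a, which encodes p21, varied more between libraries than between genotypes, with 25.5, 58.9 and 30.6 CPM in KO libraries and 26.2, 19.4 and 43.8 CPM in WT libraries. Cdkn1b (0.07), Cdkn1c (0.24), Cdkn2b (0.47) and Cdkn2c (0.17) had log2 fold changes with overlapping groups, and Cdkn2a stayed between 0 and 0.119 CPM and was not tested.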

How the data were processed

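Messenger RNA was sequenced from aortas of Mymsl knockout (KO) and wild-type (WT) mice, with 3 libraries per genotype. The authors deposited 1 table of raw counts per gene (53735 rows). Trimmomatic 0.36, STAR 2.6.0c, Subread 1.6.1 and featureCounts are named in the submitters' processing notes, with GRCm38 as the build. The sources used here do not state the annotation release, the strand setting or how reads with several positions were handled. Columns were matched to libraries by the names in the labels.

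The members, the lists and the rule for named genes were chosen with earlier results of these data known. That rule named all 32 members, 16 set regulators, up to 5 genes per pathway list with the smallest p and the 3 highest genes of each marker list.

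The deposited counts were tested in R 4.3.3 with edgeR 4.0.16 (quasi-likelihood), with genotype as the only term, TMM normalization and filterByExpr (minimum count 10, minimum total 15), leaving 14145 rows. Two-sided p-values were Benjamini-Hochberg adjusted over all tested rows (threshold 0.05). Standard errors are the fold change over the square root of F. Log2 deviations used a prior count of 2. Alternatives were DESeq2 1.42.0, limma-voom (3.58.1), other filters, a replicate block and leaving out libraries. The test was also run on simulated counts, and the share of true changes that it recovers is not reported here. A lack of calls is therefore not evidence of no difference. Replicates differed by more than sampling noise (chi-square per gene 15.1 to 70.6). At these depths 3 counts equal 0.0473 CPM over the KO group and 0.0409 CPM over the WT group, which covers counting error only.

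Gene coordinates and exon lengths came from GENCODE M21 (GRCm38), and promoters from RefSeq (GRCm38.p6). Knl1, Sgo1 and Sgo2a were matched by older symbols.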

Additional observations from a re-analysis of the deposited data

How the results depend on the processing

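None of the members was called in any setting run, namely edgeR with TMM or with DESeq2 size factors, limma-voom, the DESeq2 test, a replicate block, no filter, a mean count of at least 50, each library left out, and KO replicate 3 and WT replicate 3 left out together. Over all rows, edgeR called 1 gene, the DESeq2 test 171 (60 higher and 111 lower), no filter 9 (5 higher and 4 lower) and the replicate block 0. Leaving out single libraries gave 0 (without WT replicate 1) to 3 (without KO replicate 2). The series text speaks of 3 pairs of mice, and whether the replicate numbers mark them is not stated. The correlations of deviations at equal numbers were 0.11, 0.13 and -0.06. KO replicates 1 and 2 correlated best with the WT library of their own number and KO replicate 3 with WT replicate 1 (0.18). With 3 libraries per genotype, such correlations cannot decide the pairing. It stayed unknown, and the main fit used genotype only. With the block, the median log2 fold change of mitosis genes was 0.60.

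The median of the tested members was 0.30, and 0.065 at a mean count of at least 50, which leaves 14 members. With single libraries left out, it was lowest at 0.186 (WT replicate 3 out) and highest at 0.373 (WT replicate 1 out). The median of replication genes was lowest at 0.039 (KO replicate 2 out) and highest at 0.115 (WT replicate 2 out). That of mitosis genes was lowest at 0.345 (KO replicate 3 out) and highest at 0.814 (KO replicate 2 out), and was 0.25 without both KO replicate 3 and WT replicate 3. That last setting was chosen after the data were seen, and it fitted 28 of the 29 tested members. The cause was not tested.

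Some log2 fold changes near 0 changed sign. Limma-voom gave 1.18e-05 for Pcna and 0.000323 for Mcm4, and the mean count of 50 gave 0.00752 for Pcna and 0.00667 for Mcm4. Without both KO replicate 3 and WT replicate 3, Pcna had 0.029, Rrm2 -0.237, Cdc20 -0.20, Cenpf -0.051 and Kif11 -0.563. With single libraries left out, the ranges were -0.025 to 0.039 for Pcna, -0.0397 to 0.115 for Mcm2, -0.087 to 0.064 for Mcm4, -0.123 to 0.0032 for Mcm6, -0.066 to 0.015 for Ccnd2, -0.0165 to 0.982 for Ccne1, -0.047 to 0.439 for Rrm2, -0.075 to 0.278 for Cdc20, -0.085 to 0.367 for Birc5 and -0.393 to 0.483 for Kif11. Most mitosis genes had under 50 counts per library, so counting error alone limits single genes.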
